A study of Mus musculus with 2 samples.

Results

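Immediate early genes are switched on within minutes of a stimulus, without new protein synthesis, and their RNAs are normally short-lived. The account below follows 10 of them, Fos, Fosb, Jun, Junb, Egr1, Arc, Npas4, Nr4a1, Btg2 and Dusp1, in the granule layer of the adult mouse cerebellum. The genes were taken by symbol, through GENCODE gene IDs, and all 10 had a row among the 43346 Ensembl gene IDs of each library. The granule layer is the densely packed layer of small excitatory granule neurons that relay mossy fibre input to Purkinje cells. Per the labels, 2 areas of 18000 square microns were cut out by laser capture from wild-type male C57Bl6 mouse tissue (strain B6NCrl) aged 8 months, and each gave 1 Smart-seq library from a starting quantity of 50 cells. The 2 libraries form 1 group with no contrast to another condition, are numbered as biological replicates, and carry the same donor label, so whether they came from separate animals is not known. The labels name no treatment, stimulus or time of day, and whether the tissue was at rest was not measured. An SD below is the spread between the 2 areas (n = 2), which may be technical.

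In nerve cells the pathway runs from calcium entry and growth factor receptors through kinases such as ERK and CaMKIV to transcription factors that already sit in the nucleus, chiefly CREB, SRF with its Elk partners, and MEF2. These switch on genes whose products act next: transcription factors (the AP-1 subunits Fos, Fosb, Jun and Junb, the zinc finger protein Egr1, the bHLH-PAS protein Npas4 and the orphan nuclear receptor Nr4a1), and effectors (Arc at the synapse, the RNA deadenylation adaptor Btg2, and the MAP kinase phosphatase Dusp1, which shuts off the kinases upstream). In brain the RNAs of Fos, Arc, Egr1 and Npas4 are widely used as marks of recently active neurons.

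CREB binds the cAMP response element, TGACGTCA, or its core, TGACG, so the promoters are shown with these letters marked. RefSeq promoter windows on GRCm38.p6 were matched by symbol for 8 of the 10 genes and not for Arc or Egr1. Each window holds 300 bases, of which 250 lie before the annotated start. The 250 bases before the start are printed 5′ to 3′ for 5 genes that span the range of levels, with matches to the full element or its core on either strand in capitals. They are those of Btg2 (chr1:134079156-134079405, minus strand), Dusp1 (chr17:26508473-26508722, minus strand), Fos (chr12:85473640-85473889, plus strand), Nr4a1 (chr15:101266596-101266845, plus strand) and Npas4 (chr19:4989972-4990221, minus strand).
Btg2: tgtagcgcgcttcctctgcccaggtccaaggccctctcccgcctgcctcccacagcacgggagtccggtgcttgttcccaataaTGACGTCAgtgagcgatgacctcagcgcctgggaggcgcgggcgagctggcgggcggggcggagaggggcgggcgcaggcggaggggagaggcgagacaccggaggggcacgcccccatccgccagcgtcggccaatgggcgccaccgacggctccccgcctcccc
Dusp1: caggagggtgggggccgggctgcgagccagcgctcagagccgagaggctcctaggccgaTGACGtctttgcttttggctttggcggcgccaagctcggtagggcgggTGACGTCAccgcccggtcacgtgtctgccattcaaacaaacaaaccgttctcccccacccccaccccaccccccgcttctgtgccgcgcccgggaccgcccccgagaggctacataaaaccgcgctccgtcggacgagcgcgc
Fos: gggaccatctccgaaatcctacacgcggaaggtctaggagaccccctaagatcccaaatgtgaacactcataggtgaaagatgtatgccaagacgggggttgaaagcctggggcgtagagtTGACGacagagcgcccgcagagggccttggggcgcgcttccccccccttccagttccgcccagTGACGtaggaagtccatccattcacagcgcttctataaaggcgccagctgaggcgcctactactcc
Nr4a1: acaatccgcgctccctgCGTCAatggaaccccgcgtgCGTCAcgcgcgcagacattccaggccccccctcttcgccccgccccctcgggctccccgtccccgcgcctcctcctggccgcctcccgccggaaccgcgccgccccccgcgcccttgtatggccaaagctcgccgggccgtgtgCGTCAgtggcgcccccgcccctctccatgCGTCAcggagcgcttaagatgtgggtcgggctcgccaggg
Npas4: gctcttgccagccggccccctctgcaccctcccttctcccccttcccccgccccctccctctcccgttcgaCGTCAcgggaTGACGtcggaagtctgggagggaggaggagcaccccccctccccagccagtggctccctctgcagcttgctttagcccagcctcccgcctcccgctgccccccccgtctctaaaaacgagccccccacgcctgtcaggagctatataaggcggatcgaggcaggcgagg

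The full element was found in 2 of the 8 windows, those of Btg2 at -166 to -159 and Dusp1 at -143 to -136 (the base before the start is -1), and in 1.79% of 32851 RefSeq promoter windows. Its core was searched on both strands, and each full element holds it on either strand. The core was found in 7 of the 8 windows, all but that of Jun, and in 20.8% of all windows. Nr4a1 held 4 cores and Npas4 held 2, and the RNA of both was under the detection limit used below. Whether cores go with RNA level was not tested. Fos held 2 cores, at -129 to -125 and -66 to -62. Fosb and Junb held 1 core each. The Jun window held the only MEF2 box among the 8, against 3.19% of all windows, and GCGNGGGCG, the site of the Egr proteins, was in the windows of Btg2, Fosb and Nr4a1, against 5.55% of all. The letters TATAAA were found in the Fos window at -33 to -28 and in the Junb window from the annotated start onward, and in 13.6% of all windows. Neither the CArG box, to which SRF binds, nor the AP-1 site TGANTCA was found in any of the 8 windows, against 1.63% and 7.81% of all. A match, or the lack of one, describes exact letters in this window only. Sites further from the start, or with other letters, were not searched, so an absence here does not show that a promoter lacks the site.

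The 10 genes were expressed at levels from 0 to about 20 TPM (a gene's share of all transcripts, corrected for length and scaled to a total of 1000000). Detection required 1 TPM or more, and 5 or more expected counts, in each area. By this rule 7 of the 10 were detected, and 50.4% of all 21474 protein-coding genes were. The median over the 10 genes was 1.69 TPM, or 1.89 in replicate 1 and 1.49 in replicate 2, and the median over all protein-coding genes was 1.415 TPM. Their summed level was 53.3 TPM in replicate 1 and 54.5 in replicate 2, of which Egr1 and Btg2 together made up 65.9% and Egr1, Btg2, Jun and Dusp1 together 90.9%. Only 2 of the 10, Egr1 and Btg2, lay above 14.3 TPM, the median of the protein-coding genes that were detected.

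**Figure D1:**
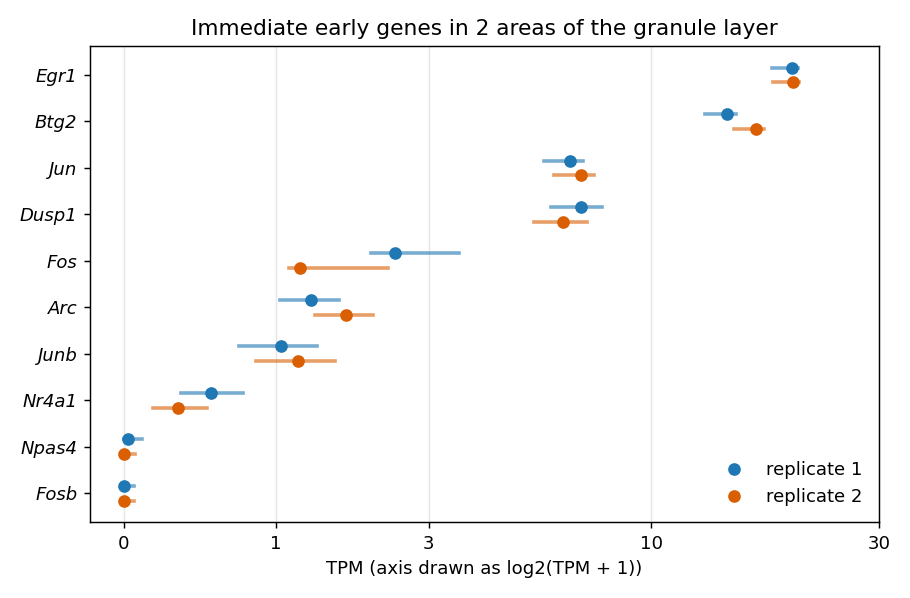
Level of each of the 10 genes in TPM, on an axis drawn as log2(TPM + 1), in replicate 1 (blue) and replicate 2 (orange). Points are the deposited TPM and bars the deposited TPM interval; its level is not in the headers. Egr1 and Btg2 stand at 14.6 TPM and above, Jun and Dusp1 between 6.38 and 6.99, and Npas4 and Fosb at or next to 0.

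The AP-1 subunits were uneven. AP-1 is a dimer of a Jun protein with a Fos, Jun or ATF protein, and Jun proteins can pair with themselves whereas Fos proteins cannot. Jun (ENSMUSG00000052684.4, chromosome 4, 95049034 to 95052222, minus strand, GENCODE M21 on GRCm38) was at 6.61 and 6.98 TPM, from 350 and 359 counts. The areas gave nearly the same level, a mean of 6.80 ± 0.262 TPM. Junb (ENSMUSG00000052837.5, chromosome 8, 84974484 to 84978718, minus strand), a Jun relative that is a weaker activator on many promoters, was at 1.04 and 1.21 TPM, from 31 and 35 counts. Jun was 6.36-fold and 5.77-fold above Junb in the same areas.

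Fos (ENSMUSG00000021250.9, chromosome 12, 85473890 to 85477273, plus strand) was at 2.43 TPM in replicate 1 and 1.23 TPM in replicate 2, from 73 and 41 counts. This was the widest relative spread among the 7 detected genes, with an SD of 0.849 on a mean of 1.83 TPM. Jun exceeded Fos in both areas, by 2.72-fold in replicate 1 and 5.67-fold in replicate 2. Fosb (ENSMUSG00000003545.2, chromosome 7, 19302696 to 19310051, minus strand), whose truncated form builds up in forebrain neurons after repeated stimulation, had 0 counts in both libraries. With 3 counts taken as the upper limit behind a 0, Fosb could have reached 0.150 CPM in replicate 1 and 0.156 CPM in replicate 2 (CPM, counts scaled to 1000000 gene counts), and a lower level was not detectable. The annotation used for counting gave Fosb 1 transcript, so its spliced forms could not be told apart in any case.

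Egr1 (ENSMUSG00000038418.7, chromosome 18, 34859823 to 34864984, plus strand), an activator that also drives its own corepressor gene Nab2, was the highest of the 10. It was at 19.9 and 20.0 TPM, from 1007 and 981 counts, and 79.2% of protein-coding genes were lower. The mean was 19.9 ± 0.0707 TPM, the narrowest relative spread of the detected genes. Egr1 stood 8.18-fold above Fos in replicate 1 and 16.2-fold in replicate 2, a difference between areas that rested on Fos.

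Nr4a1 (ENSMUSG00000023034.6, chromosome 15, 101254269 to 101274795, plus strand), also called Nur77, was at 0.490 and 0.280 TPM, from 20 and 11 counts, and so under the detection limit in both areas. Npas4 (ENSMUSG00000045903.8, chromosome 19, 4984355 to 4990316, minus strand), a factor that answers chiefly to calcium entry and is nearly restricted to neurons, had 1 count in replicate 1 and 0 in replicate 2. The exact Poisson 95% interval for 1 count runs from 0.0253 to 5.57 counts. Npas4 and Fosb could not be ordered.

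The 3 effectors lay above most of the transcription factors. Btg2 (ENSMUSG00000020423.6, chromosome 1, 134075170 to 134079120, minus strand), an antiproliferative protein that recruits the CCR4-NOT deadenylase to RNAs, was second at 14.6 and 16.7 TPM, from 659 and 735 counts. Dusp1 (ENSMUSG00000024190.6, chromosome 17, 26505590 to 26562128, minus strand) was at 6.99 and 6.38 TPM, from 225 and 201 counts. Arc (ENSMUSG00000022602.10, chromosome 15, 74669083 to 74672570, minus strand), which promotes endocytosis of AMPA receptors at synapses, was at 1.34 and 1.75 TPM, from 68 and 86 counts. Btg2 stood 10.9-fold and 9.54-fold above Arc, so the order of these effectors was the same in both areas.

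Ordered by mean TPM the genes ran Egr1, Btg2, Jun, Dusp1, Fos, Arc, Junb, Nr4a1, Npas4 and Fosb. The values of neighbours overlapped between the areas for Jun and Dusp1, for Fos and Arc, and for Npas4 and Fosb, so these pairs did not differ beyond their spread. The ranges of the other neighbours did not overlap, although with 2 areas no exact permutation test can pass 0.05. The largest step between detected genes was 3.65-fold, from Dusp1 down to Fos, and Egr1 was 1.28-fold above Btg2.

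Relatives of the 10 genes placed these levels within their families. Among the Jun genes, Jund, which is constitutive in many cells, was at 4.20 and 4.28 TPM, below Jun and 4.04-fold and 3.54-fold above Junb. Jun made up 55.8% and 56.0% of the summed TPM of the 3 Jun genes. The 3 Jun genes summed to 12.2 ± 0.438 TPM and the 4 Fos genes to 2.98 ± 0.417 TPM. Within the Fos family, Fosl2 was at 0.550 and 0.890 TPM and Fosl1 at 0.290 and 0.560 TPM, and the share held by Fos was 74.3% in replicate 1 and 45.9% in replicate 2. Fosl2 and Fos differed between the areas in opposite directions.

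Egr1 made up 97.0% and 95.4% of the summed TPM of the 4 Egr genes. Egr4 was at 0.520 and 0.940 TPM, Egr2 had 4 and 1 counts, and Egr3 had 0 counts in both libraries. The Nr4a family had another order, with the member Nr4a1 lowest: Nr4a2, a nuclear receptor best known from dopamine neurons, was at 2.75 and 2.24 TPM, 5.61-fold and 8.00-fold above Nr4a1, and Nr4a3 was at 0.680 and 0.560 TPM. Npas3, a family member of Npas4 that is not known as an immediate early gene, was at 3.81 and 5.33 TPM.

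Btg2 was also the lowest of the Btg and Tob genes compared. Btg1, the closest relative, was at 241 and 275 TPM, 16.6-fold and 16.5-fold above Btg2, and Tob1 was at 38.2 and 43.9 TPM. Among the MAP kinase phosphatases, Dusp5, a nuclear phosphatase specific for ERK, was at 22.7 and 21.8 TPM, 3.24-fold and 3.41-fold above Dusp1. Dusp6, its cytoplasmic counterpart, was at 1.43 and 1.98 TPM, Dusp2 had 7 and 3 counts, and Dusp4 had 0 and 6 counts. Of the 7 families compared, the member led in the Fos, Jun and Egr families and was not the highest in the Nr4a, Npas, Btg and Dusp families.

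**Figure D2:**
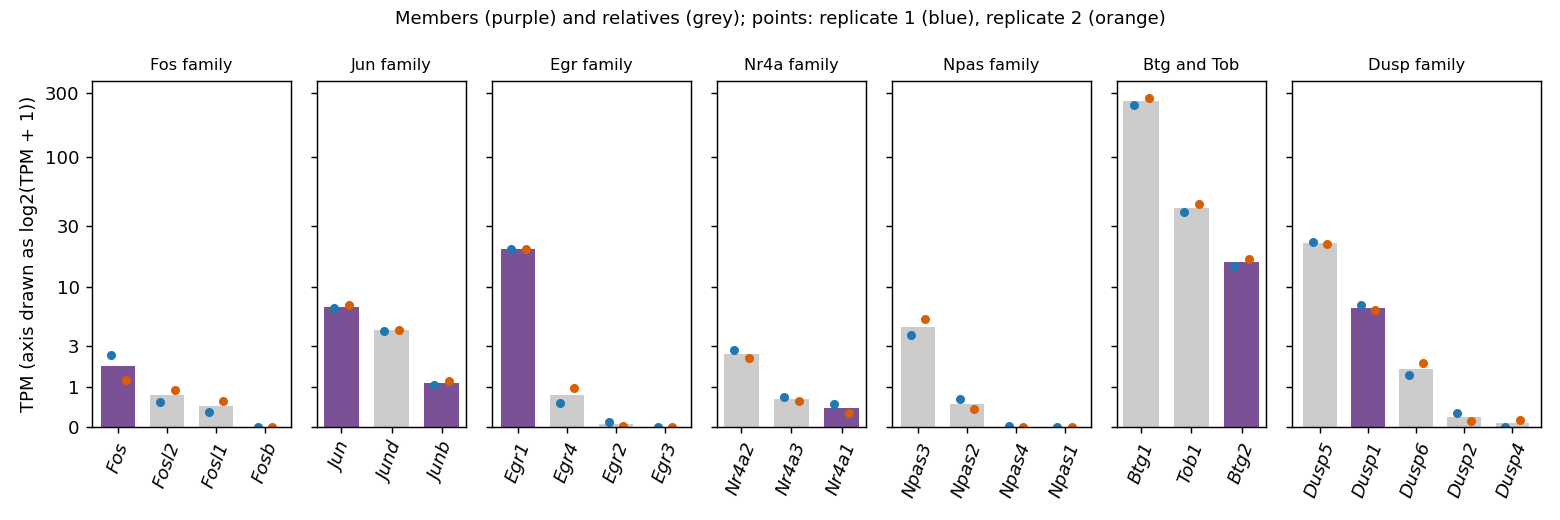
Mean TPM of the members (purple bars) and of their relatives (grey bars), on an axis drawn as log2(TPM + 1), with replicate 1 as blue points and replicate 2 as orange points. Egr1 holds nearly all of its family's level, while Btg1 at 241 and 275 TPM stands far above Btg2.

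Transcript values refined these levels. For 6 of the 10 genes the annotation used for counting gave a single transcript. Of the 4 Fos transcripts, the protein-coding one of 2108 bases was at 1.96 TPM in replicate 1 and 1.23 in replicate 2. A shorter transcript of 795 bases without a coding sequence was given 5.65 counts, 0.470 TPM and 19.5% of the gene in replicate 1, and 0 counts in replicate 2. For Egr1, the transcript of 3036 bases held 98.6% and 99.2%. For Dusp1 the coding transcript held 96.2% in replicate 1 and 100% in replicate 2, and in replicate 1 a pair of transcripts with a retained intron took 5.66 and 1.46 counts. Both Arc transcripts, of 3055 and 3054 bases, have a coding sequence of 396 residues. All Arc counts were assigned to the longer, and whether reads can tell the 2 apart was not checked.

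Overlapping genes may limit 3 of the values, since the use of strand in counting is not given in the sources used here. The overlaps are those of gene spans in GENCODE M21, whereas M4 was used for counting. In M21, Junb overlaps the 3′ end of Prdx2, an antioxidant enzyme gene on the opposite strand, over 351 bases. Prdx2 had 4908 and 5340 counts against 31 and 35 for Junb. The counted Junb transcript has 1840 bases, shorter than the M21 span, so whether it reaches Prdx2 in M4 was not checked. Jun overlaps the antisense gene Junos over 689 bases, and Junos had 18 and 17.6 counts. The M21 span of Dusp1 overlaps the start of Ergic1, a gene on the opposite strand with 280 and 343 counts, over 640 bases. This overlap lies before the RefSeq start used for the Dusp1 promoter, and no counted Dusp1 transcript is longer than 2313 bases. Whether the overlap exists in M4 was not checked. The deposited posterior SD of the count, which measures reads that could move between genes, was 0 for all 10 genes in both libraries except Jun in replicate 2, at 0.880 counts.

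The next question was whether the 10 genes differed between the areas by more than counting error. Counts were compared by a two-sided exact binomial test over all 16636 genes with at least 10 counts in sum, with Benjamini-Hochberg adjustment, and 47.6% of those genes were called. Of the 8 members that could be tested, 2 were called, Fos and Btg2. Fos was higher in replicate 1, where it had 3.66 CPM against 2.13 CPM in replicate 2, a ratio of 1.72 with an exact 95% interval of 1.16 to 2.58 (adjusted p = 0.0161, exact binomial test). Btg2 was higher in replicate 2, with a ratio of 1.16 over replicate 1 and an interval of 1.04 to 1.29 (adjusted p = 0.0183, exact binomial test). Both calls were lost, to 0 of 8, under a 10-fold reduction of all counts, which stands for 10 reads per molecule, and with Bonferroni adjustment. The deposited TPM intervals of the areas overlapped for all 10 genes, Fos and Btg2 included. The share of all genes with such an overlap was not computed, so this is no trait of the 10 genes.

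The other 6 tested genes gave ratios of replicate 2 over replicate 1 whose intervals included 1. Egr1 had the tightest, 1.01 (0.924 to 1.10), followed by Jun at 1.06 (0.915 to 1.24) and Dusp1 at 0.926 (0.762 to 1.12). Arc at 1.31 (0.943 to 1.83), Junb at 1.17 (0.701 to 1.96) and Nr4a1 at 0.570 (0.247 to 1.25) had fewer counts and wider intervals, within which a difference was not detectable at this depth. On the log2 scale of TPM + 1, 5 members were higher in replicate 2, 4 in replicate 1, and Fosb was equal at 0. The median absolute log2 ratio was 0.15 over the 8 tested members and 0.21 over all tested genes.

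Set beside the 500 protein-coding genes nearest to it in mean TPM, Egr1 was close between the areas: 97.8% of those genes were further apart. For Jun this share was 82.8%, for Junb 81.0%, for Dusp1 73.2%, for Arc 63.0% and for Btg2 49.4%. For Fos it was 19.4%, so Fos was the detected member with the widest spread for its level, at a log2 ratio of -0.62 where its neighbours had a median absolute value of 0.33.

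**Figure D3:**
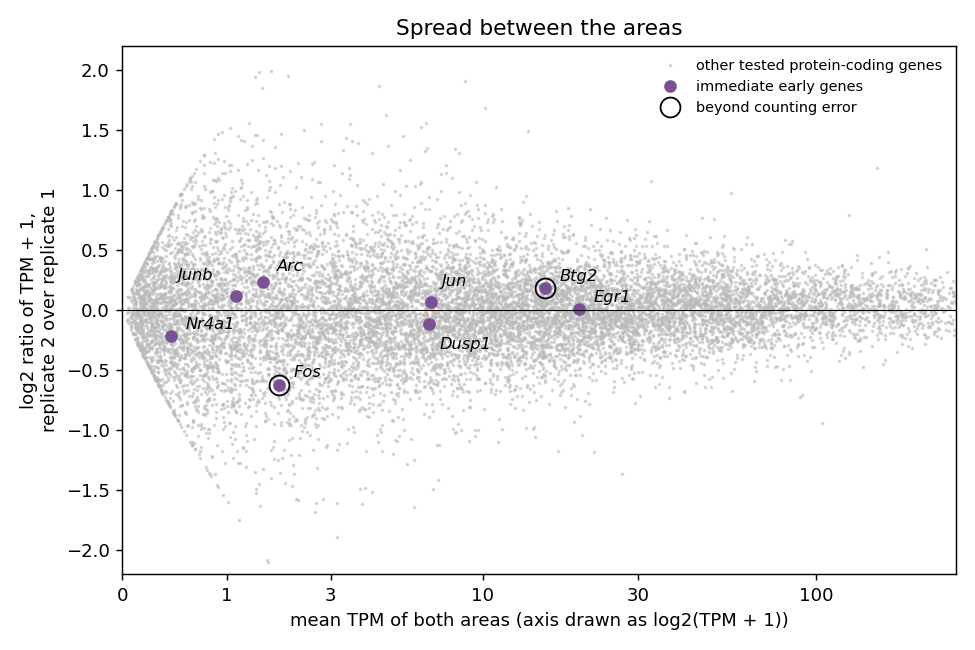
Log2 ratio of TPM + 1, replicate 2 over replicate 1, against mean TPM for the 8 tested members (purple) and the other tested protein-coding genes (grey), of which 450 of 13566 lie outside the axes. Black rings mark Fos and Btg2, the members beyond counting error, and Egr1 lies on the line of no difference.

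Cell type markers are given beside these results. Of all tested genes, 24% were called higher in replicate 1 and 23.7% higher in replicate 2. Granule neuron markers, 10 of 10 detected, had a median of 191 TPM. They summed to 2962 TPM in replicate 1 and 3223 in replicate 2. By TPM 8 of 10 were higher in replicate 2, where 6 were called higher, and 0 were called higher in replicate 1. Oligodendrocyte markers were detected for 8 of 8, summed to 590 and 726 TPM, and were all higher by TPM in replicate 2, 7 of them called. Endothelial cell markers, 7 of 8 detected, summed to 308 and 249.6 TPM, with none higher by TPM in replicate 2 and 6 called higher in replicate 1. Microglia markers, 8 of 10 detected, summed to 133 and 99.6 TPM, with 1 of 10 higher by TPM in replicate 2. Of the 10, 7 were called higher in replicate 1 and 1 in replicate 2. Red blood cell markers summed to 5040 TPM in replicate 1 and 390 in replicate 2. Astrocyte and Bergmann glia markers, 8 of 8 detected, summed to 748 and 724 TPM, with 2 of 8 higher in replicate 2. Of the 8, 4 were called higher in replicate 1 and 1 in replicate 2. Mural cell markers, 4 of 8 detected, summed to 46.1 and 78.8 TPM, with Acta2 and Tagln at 0 counts in replicate 1. Of these mural markers 5 were called higher in replicate 2, and 2, Rgs5 at 27.9 and 19.9 TPM and Kcnj8 at 1.70 and 0.630 TPM, were called higher in replicate 1. Markers of Golgi and other inhibitory cells, 6 of 8 detected, summed to 80.95 and 67.5 TPM, with 3 called higher in replicate 1 and 1 in replicate 2. Purkinje cell markers, 7 of 8 detected, summed to 377 and 443 TPM, with 3 called in each direction. Unipolar brush cell markers, 2 of 4 detected, summed to 61.9 and 80.9 TPM, of which Calb2 alone made up 49.7 and 76.1 TPM. Calb2 was the 1 marker called higher in replicate 2, so the direction of the sum is that of Calb2. The other 3 were called higher in replicate 1, and Lmx1a had 0 counts in replicate 2. The part of these cells in the levels of the 10 genes was not tested, and in captured tissue fewer cells of a type and less RNA per cell cannot be told apart.

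The wider set of inducible genes was described to see how the 10 members compare with others of the response. It held 62 genes in 3 lists, of which 33 (53.2%) were detected, with a median of 1.635 TPM. Of the 10 AP-1 relatives and partners 3 were detected, with a median of 0.410 TPM. Atf2, a partner of Jun that is not itself inducible in most cells, was at 160 and 146 TPM, 24.3-fold and 20.9-fold above Jun. Jund followed, and the AP-1 repressor Jdp2 was at 1.45 and 1.68 TPM, while Batf, Batf3 and Maff had 0 counts in both libraries.

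Of 21 other inducible transcription factors, with some of their relatives, 11 were detected, with a median of 1.44 TPM. The Krüppel-like factor Klf9 led at 69.5 and 58.7 TPM, followed by Crem, whose short form ICER represses cAMP-driven genes, at 20.97 and 19.7 TPM, and Klf6 at 15.8 and 14.4 TPM. Ier5 was at 2.19 and 4.16 TPM, and its counts of 119 and 220 differed beyond counting error (adjusted p = 7.77e-08, exact binomial test). Egr3 and Npas1 had 0 counts. The clock gene Per1, which is also cAMP-inducible, was at 3.58 and 2.10 TPM, yet its counts of 148 and 153 did not differ beyond counting error.

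Of 31 other inducible effectors and feedback genes, 19 were detected, with a median of 6.27 TPM, the highest of the 3 lists. Btg1 led, with the small GTPase Rheb at 231 and 234 TPM and the neurite protein gene Nrn1 at 121 and 125 TPM. Gadd45b, a stress-inducible gene of DNA demethylation and repair, was furthest apart among the detected genes of the list, at 9.0 TPM in replicate 1 and 18.3 in replicate 2 (adjusted p = 2.68e-14, exact binomial test). Tiparp, a mono-ADP-ribosyltransferase, went the other way at 15.7 and 9.57 TPM (adjusted p = 9.39e-09, exact binomial test). Ptgs2, which encodes the inducible cyclooxygenase COX-2, and Nptx2, a synaptic pentraxin, had 0 counts in both libraries. Of the 49 wider genes that could be tested, 17 were called between the areas. Replicate 2 was the higher for 11 of these, a direction called for 23.7% of all tested genes, and replicate 1 for 6, a direction called for 24% of all.

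**Figure D4:**
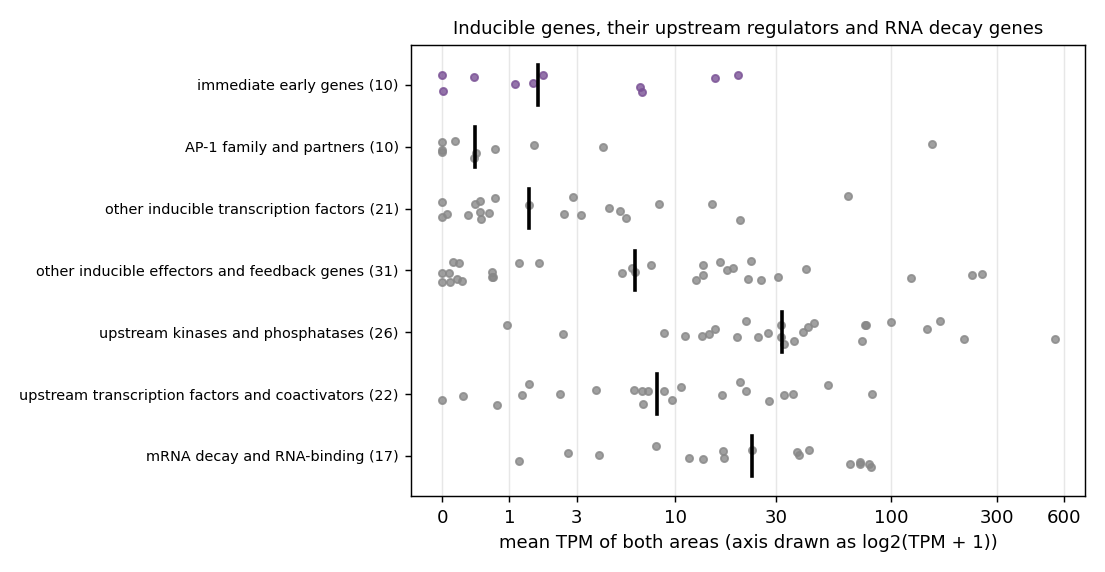
Mean TPM of both areas for each gene of 7 groups, on an axis drawn as log2(TPM + 1), with the number of genes in parentheses and black bars at the medians. The 10 immediate early genes have a median of 1.69 TPM and the upstream kinases and phosphatases one of 32.1 TPM.

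The lists of genes upstream of the 10 members had higher median levels than the members' 1.69 TPM. Upstream kinases and phosphatases were detected for 25 of 26 genes, with a median of 32.1 TPM. The calcineurin subunits Ppp3ca and Ppp3r1 were at 537 and 553 TPM and at 206 and 221 TPM, and Camk4, the nuclear calmodulin kinase that phosphorylates CREB and is rich in granule cells, was at 166 TPM in both areas. Mapk3, which encodes ERK1, was at 12.2 and 19.0 TPM and was called higher in replicate 2 (adjusted p = 1.53e-08, exact binomial test), as was the JNK gene Mapk9 at 29.6 and 43.3 TPM (adjusted p = 2.30e-15, exact binomial test).

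Upstream transcription factors and coactivators were detected for 19 of 22 genes, with a median of 8.09 TPM. Mef2a led at 87.5 and 76.7 TPM, followed by the CREB coactivator Crebbp at 52.5 and 51.0 TPM and the histone deacetylase Hdac5, which holds MEF2 in check, at 40.2 and 31.3 TPM. Hdac5 had only 433 and 344 counts, while Creb1, at 32.3 and 33.3 TPM, had 2712 and 2708. The place of Hdac5 above Creb1 thus rests on the length correction and did not hold in replicate 2. Crtc3, another CREB coactivator, was at 24.7 and 18.8 TPM and was called lower in replicate 2 (adjusted p = 4.58e-12, exact binomial test). Mef2b had 0 counts in both libraries. Of the 21 genes tested here, 10 were called higher in replicate 1 and 1 in replicate 2, directions called for 24% and 23.7% of all tested genes.

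Genes of mRNA decay and RNA binding, which include both destabilising proteins and the stabilising Elavl proteins, were detected for 16 of 17, with a median of 23.2 TPM. The CCR4-NOT nuclease Cnot7, to which Btg2 binds, led at 73.1 and 89.4 TPM, ahead of the neuronal RNA-binding protein genes Elavl4 at 78.8 and 80.6 TPM by mean level and Fmr1 at 73.0 and 72.8 TPM. Cnot6l, another CCR4-NOT nuclease, was at 34.0 and 42.4 TPM (adjusted p = 7.51e-13, exact binomial test). Zfp36l1, which binds AU-rich RNA tails, was at 3.84 TPM in replicate 1 and 1.5 in replicate 2 (adjusted p = 2.99e-11, exact binomial test). Its paralogs were called in the other direction, Zfp36 at 0.450 and 1.95 TPM (adjusted p = 7.42e-07, exact binomial test) and Zfp36l2 at 3.55 and 4.46 TPM (adjusted p = 0.0281, exact binomial test); both were named after their values were seen.

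Chaperone genes, some of which respond to heat or to the handling of tissue, were described as well. With no other condition in the data, their levels do not measure such a response. Of 8, 7 were detected, led by Hsp90aa1 at 1240 and 1220 TPM, Hspa8 at 891 and 985 TPM and Hspa5 at 77.8 and 85.6 TPM. Lowest of the list were Hspa1a at 1.26 and 1.37 TPM and Hspa1b, not detected, at 0.260 and 0.380 TPM. Both were named after their values were seen. Hspb1 was at 11.2 TPM in replicate 1 and 6.65 in replicate 2 (adjusted p = 0.00047, exact binomial test), and Dnajb1 was at 10.9 and 9.13 TPM, which missed the threshold (adjusted p = 0.0507, exact binomial test). The part of tissue handling in the levels of the 10 genes was not tested.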

How the data were processed

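Both libraries of the granule layer were used as 1 group of 2 areas. Per the deposited notes, genome mm10 and annotation GENCODE M4 were used; the sources used here give neither aligner, counting program nor use of strand. Expected counts were deposited as estimates, some of them not whole. TPM and FPKM, both corrected for length and depth, were computed by the authors. Bounds of a TPM interval and a posterior SD of the count came as further deposited score values. The deposited percent columns give each transcript's share of its gene. Libraries held 20532709 and 19939370 expected counts, of which 19962271 and 19261911 fell on Ensembl genes, and 13337 and 13236 genes were detected; spike-in sequences held 2.78% and 3.40% and stayed out of totals and tests, as did numeric IDs with 10 and 6 counts. Smart-seq reads without molecular identifiers are not independent molecules, so intervals and floors cover counting error only.

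Names, positions and transcript types came from GENCODE M21 on GRCm38, the build of mm10, which matched 42462 of 43346 IDs; a type may differ from that in M4. Counts were rounded, and the two-sided exact binomial test was run against the share of library totals at a Benjamini-Hochberg level of 0.05; it compares these 2 libraries only. It was checked on simulated data drawn with Poisson counting error only, so the check does not cover reads that are not independent molecules. Log2 ratios used TPM + 1. TMM scaling came from edgeR 4.0.16; the rest was done in Python 3.11.15 with scipy 1.17.1. The members and lists were chosen with earlier results of these data known. Named were all members and, from each list other than those of cell types, the 3 highest and 2 most different detected genes. Genes with 0 counts in these lists were also named. Relatives of the members, overlapping genes and single cell type markers were named after their values were seen. With 2 libraries no gene could be named for likeness of pattern. Of the listed symbols, 4 matched under another name and Auf1, another name of Hnrnpd, was dropped.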

Additional observations from a re-analysis of the deposited data

How the results depend on the processing

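The median level of the 10 genes, 1.69 TPM, was 1.49 without replicate 1 and 1.89 without replicate 2. It was 1.41 in FPKM and 2.18 when TPM was rescaled to nuclear genes without Malat1, both by construction of the unit. The number of members detected was 4 at a limit of 5 TPM and from 6 to 8 under the other limits, with 7 in either library alone. Of the wider inducible genes 33 were detected, and 36 without replicate 1 and 33 without replicate 2. The number of members beyond counting error, 2, fell to 0 with counts divided by 10, when 117 of 16636 genes were called, and to 0 with Bonferroni adjustment, when 2583 were; it stayed at 2 with TMM scaling, whose factors were 1.0001 and 0.9999, and with other filters on low counts, and Fos and Btg2 were the members called each time. The number of members higher in replicate 2 was 5 with pseudocounts of 0.1 and 5 and with CPM. Fos had a log2 ratio of -0.62, -0.93 with a pseudocount of 0.1, -0.25 with 5, and -0.41 from its coding transcript alone, a setting added after seeing the data. No paired analysis was possible because there is only 1 group. Depth limits Fos, Arc, Junb, Nr4a1, Npas4 and Fosb, each with fewer than 100 counts in a library.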

Other observations

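Homer1 is known for a short, activity-induced form, Homer1a, which lacks the coiled coil of the long constitutive forms, and it was looked at by transcript after its gene level was seen. The transcript with a coding sequence of 186 residues, that of the short form, was at 2.38 and 2.56 TPM and held 10.5% and 11.1% of the gene. A long transcript, with 370 residues, was at 16.9 and 18.04 TPM and held 74.6% and 77.9%. The short form thus lay between Fos at 2.43 and 1.23 TPM and Dusp1 at 6.99 and 6.38 TPM by mean level, with an SD of 0.127 TPM between the areas (n = 2).

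Bdnf, a neurotrophin gene that Npas4 is known to activate in hippocampal neurons of the mouse, was at 13.2 and 14.2 TPM, from 860 and 897 counts, in the same libraries that held 1 and 0 counts of Npas4. It was named after its values were seen.

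Crem had more counts in replicate 2, 387 against 326 in replicate 1 (adjusted p = 0.0159, exact binomial test), but a lower TPM there, 19.7 against 20.97. The direction of its difference was thus opposite in counts and in TPM, and the cause was not tested.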
